A study of Mus musculus with 15 samples.

Results

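Aged mice given the isotype control antibody IgG2a were compared with young mice in the podocyte fraction of the kidney. The comparison was chosen by group and not by any measured value, and it took 9 of the 15 RNA-Seq libraries in the count table. The 5 young mice were male C57BL/6J animals 4 months old that received no injection. The 4 aged mice were male C57BL/6J animals in a 21-month group that received the rat IgG2a isotype control antibody (2A3) into the peritoneum each week at 12 mg/kg for 8 weeks. Age and antibody injection therefore cannot be told apart here. Each library came from a single mouse. Kidney cortex was digested, and cells that bound anti-nephrin antibodies were pulled out with magnetic beads (MACS). Aged libraries are called replicates 1 to 4 and young libraries replicates 1 to 5. These numbers only name the libraries. The table names its libraries by number only, and they were placed in groups by the numbers marked in the study's principal component plot. The labels list 5 IgG2a samples, and 4 libraries could be placed in that group.

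Podocytes are terminally differentiated epithelial cells that wrap the glomerular capillaries, and their interdigitating foot processes are joined by the slit diaphragm, of which nephrin is a core protein. They make much of the glomerular basement membrane and secrete vascular endothelial growth factor for the neighboring endothelium. Aging kidneys are known for podocyte depletion, glomerular scarring and a gain of resident immune cells.

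The 9 libraries held 20500755 to 32717100 counts. Aged replicate 1 stood apart from the other aged libraries. Results are given for all 9 libraries and, where the call changed or the fold moved by over 1.5 times, for the 8 without it. Its expression values set it apart, so leaving it out narrows the spread within the aged group by choice. The lower adjusted p-values and the added calls without it are to be read with that limit. The first principal component carried 57.8% of the variance over 15953 genes. Its scores were -53.4 to -32.4 in the young libraries, 64.9 to 77.1 in aged replicates 2 to 4 and -17.8 in aged replicate 1. On a log scale aged replicate 1 had a mean correlation across genes of 0.964 with the young libraries and of 0.931 with the other aged libraries. Transcripts of the mitochondrial genome took 23.1% to 30.4% of counts in the young libraries, 29.3% in aged replicate 1 and 38.7% to 54.9% in aged replicates 2 to 4. The fraction held nephrin transcripts and also those of other cells. Per kilobase of exon, mean young levels were 9.46 RPKM for Nphs1 (nephrin), 101 for Podxl (podocalyxin), 52.5 for Lrp2 (megalin, of the proximal tubule), 547 for Slc34a1 (the proximal tubule phosphate transporter), 1254 for Umod (uromodulin, of the thick ascending limb) and 2445 for Cd74 (the MHC class II invariant chain). In such bulk libraries fewer cells of a type and less RNA per cell cannot be told apart.

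Across all 9 libraries, 1443 of 15953 genes were higher in the aged group (9.05%) and 1337 were lower (8.38%) at an adjusted p under 0.05 in edgeR's quasi-likelihood test. Of these, 621 rose more than 2-fold (3.89% of genes tested) and 732 fell more than 2-fold (4.59%). Without aged replicate 1 the counts were 3584 higher (22.1% of 16216 genes) and 3813 lower (23.5%), with 1323 (8.16%) and 1447 (8.92%) past 2-fold. Leaving out any 1 of the other 8 libraries, with aged replicate 1 kept, gave 260 to 744 genes higher and 293 to 760 lower. Each of those fits had 1 library fewer. In this text a gene "rose" or "fell" only if it passed that adjusted p over all genes. The percentages above are the background for list counts with all 9 libraries and without aged replicate 1. List counts from other fits are to be set against the totals of those fits. For leave-outs these are the totals above. Of 15953 genes, DESeq2 called 2289 higher and 2166 lower and limma 3898 and 3549. Without aged replicates 1 and 2 the totals were 2858 and 3112 of 16528 genes. The groups did not overlap for 6.48% of genes with all aged libraries above and for 8.32% with all aged libraries below.

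Because aged replicate 1 took no part in the fit without it, its own values could be set against those calls. Of 3545 genes called higher without it and tested in both fits, it lay above every young library for 946 (26.7%), within the young range for 1856 and below it for 743. Over all 15953 genes, it lay above the young range for 26.2%. Of 3797 genes called lower, it lay below every young library for 1335 (35.2%), against 24.6% of all genes. Of the genes called without it, it lay beyond the young range on the same side for 28 of 34 podocyte genes, 8 of 8 mesangial and smooth muscle genes, 20 of 24 proximal tubule genes and 12 of 12 plasma cell and immunoglobulin genes. The corresponding counts were 0 of 18 macrophage genes, 0 of 28 interferon-stimulated genes and 0 of 69 nuclear respiratory chain genes.

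**Figure D1:**
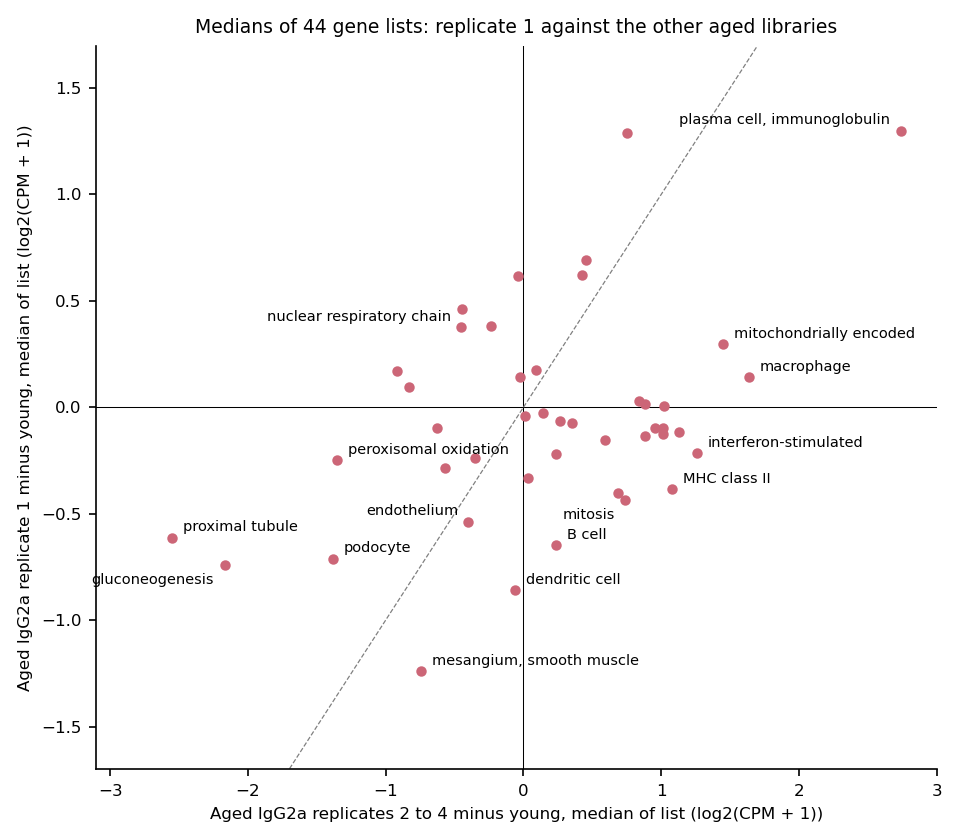
Each point is 1 of 44 gene lists, with the median over its tested genes of the log2(CPM + 1) difference from the young mean, for aged IgG2a replicates 2 to 4 on the x axis and for aged IgG2a replicate 1 on the y axis (the dashed line marks equal values). Plasma cell and immunoglobulin genes lay high on both axes (2.74 and 1.30), whereas macrophage genes were high only on the x axis (1.64 and 0.14).

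The genes named first had the smallest p-values among protein-coding genes that changed over 2-fold with and without aged replicate 1. The naming rule also required that the groups not overlap, so aged replicate 1 lay with its group for these genes by choice. Cd5l (ENSMUSG00000015854, chr3:87357881-87371073 in GRCm38, plus strand) encodes a secreted scavenger protein of tissue macrophages. Its level was 0.160, 0, 0.0776, 0 and 0.143 CPM (counts per 1000000 after TMM scaling) in the young libraries and 52.4, 52.7, 26.8 and 21.7 CPM in the aged libraries. The young values rest on 10 reads in all, and the groups lay far apart (log2 fold change 8.99 ± 0.56 (SE), edgeR adjusted p = 0.000263). The log2 fold change of Cd5l without aged replicate 1 was 8.79 ± 0.53 (edgeR adjusted p = 7.14e-06). Prg2, the major basic protein of eosinophil granules, measured 0.160, 0.119, 0.0776, 0 and 0.0714 CPM in young and 6.11, 5.32, 6.70 and 7.09 CPM in aged libraries (log2 fold change 6.14 ± 0.42, edgeR adjusted p = 0.000294). Ccr3, the eotaxin receptor, measured 0.160, 0, 0.0776, 0.0656 and 0.0714 CPM in young and 6.43, 3.80, 3.46 and 5.03 CPM in aged libraries (log2 fold change 5.95 ± 0.48, edgeR adjusted p = 0.000619). Both sat at a handful of reads per young library and at 3.46 to 6.43 CPM (Ccr3) and 5.32 to 7.09 CPM (Prg2) in every aged one. Slpi, a secreted inhibitor of leukocyte proteases, rose 12.6-fold, from a young range of 0.328 to 0.923 CPM to an aged range of 7.26 to 10.99 CPM (edgeR adjusted p = 0.000619).

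Among the genes that fell, Hspa12a (ENSMUSG00000025092, chr19:58795750-58943654, minus strand), an atypical member of the HSP70 family, measured 26.4, 29.0, 29.7, 32.4 and 32.6 CPM in young and 12.2, 11.1, 10.1 and 8.44 CPM in aged libraries. The ranges did not meet, and the level was 2.85-fold lower in the aged group (edgeR adjusted p = 0.000687). Npr3, the natriuretic peptide clearance receptor, which podocytes express, went from a young range of 22.8 to 31.1 CPM to an aged range of 6.97 to 9.51 CPM and was 3.20-fold lower (edgeR adjusted p = 0.000836). In the 8 libraries without aged replicate 1 the drops were 3.07-fold for Hspa12a and 3.40-fold for Npr3 (edgeR adjusted p = 7.01e-06 and 1.44e-05). All calls in these passages on Cd5l, Prg2, Ccr3, Slpi, Hspa12a and Npr3 held whichever of the 9 libraries was left out, with a highest edgeR adjusted p of 0.00623. The genes were chosen for small p-values, so that is no separate support for them.

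**Figure D2:**
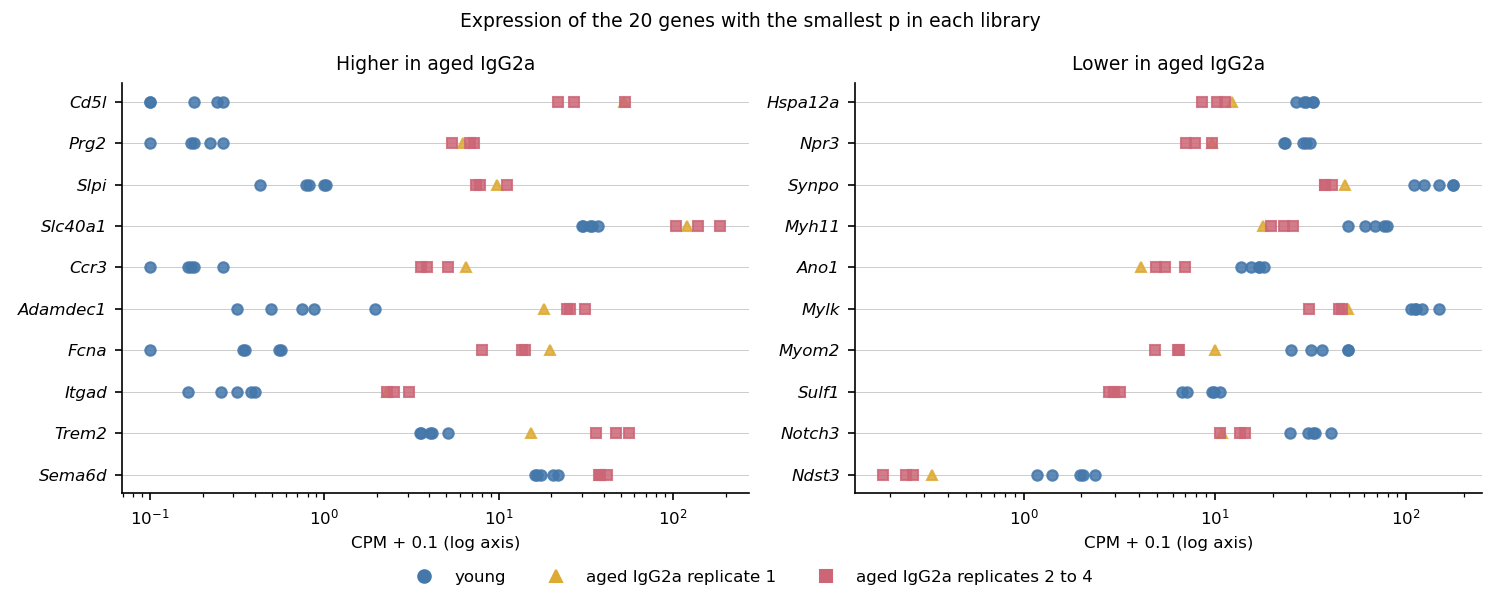
CPM plus 0.1 on a log axis for the 10 genes higher (left) and the 10 genes lower (right) in aged IgG2a with the smallest p-values, 1 symbol per library. Circles are the 5 young libraries, the triangle is aged IgG2a replicate 1 and squares are aged replicates 2 to 4. No aged symbol overlaps the young range for any of the 20 genes, as the choice of genes required.

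Podocyte genes were lower in the aged mice. Of 41 podocyte genes tested, 27 fell (against 8.38% of all genes) and 0 rose, with a median log2 fold change of -1.27 against 0.04 for all genes tested. Without aged replicate 1, 34 fell and the median was -1.51. Nphs1 (ENSMUSG00000006649, chr7:30458315-30487223, plus strand) measured 59.4, 56.1, 42.2, 77.6 and 77.8 CPM in young and 19.1, 4.73, 7.24 and 4.25 CPM in aged libraries. Every aged library lay below every young one, with aged replicate 1 between the young range and the other aged libraries. The change in Nphs1 was 6.96-fold (log2 fold change -2.80 ± 0.45, edgeR adjusted p = 0.00833) and 11.7-fold without aged replicate 1 (edgeR adjusted p = 1.79e-05). Synpo, which encodes the foot process actin binding protein synaptopodin, measured 149, 123, 109.6, 176 and 175 CPM in young and 47.8, 37.4, 37.5 and 40.6 CPM in aged libraries. Here aged replicate 1 was close to the rest of its group, and the gene was 3.59-fold lower (log2 fold change -1.84 ± 0.17, edgeR adjusted p = 0.00119). Podxl, the anionic glycoprotein that coats foot processes, went from a young range of 422 to 703 CPM to an aged range of 167 to 208 CPM, 2.94-fold lower (edgeR adjusted p = 0.00269).

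Further podocyte genes, among them a transcription factor and genes of the matrix, followed the same direction. Wt1, the podocyte transcription factor mutated in inherited glomerular disease, measured 20.1, 17.7, 12.9, 28.0 and 25.8 CPM in young and 5.94, 2.28, 3.18 and 2.13 CPM in aged libraries, a 6.03-fold drop (edgeR adjusted p = 0.0046). Plce1, a phospholipase of which loss causes nephrotic syndrome, and Thsd7a, a membrane antigen in membranous nephropathy, were 4.53-fold and 5.30-fold lower (edgeR adjusted p = 0.00248 and 0.00248). Clic5, which links ezrin to podocalyxin, was 3.04-fold lower (edgeR adjusted p = 0.00277). Col4a3, a chain of the mature glomerular collagen IV network, measured 205, 229, 205, 230.4 and 187 CPM in young and 121, 46.7, 51.8 and 51.7 CPM in aged libraries. Aged replicate 1 lay midway between the young range and the other 3, and the fold was 3.12 with it and 4.30 without it (edgeR adjusted p = 0.0102 and 2.21e-06). Lamb2, the laminin beta chain of the mature membrane, changed less, from a young range of 89.7 to 123 CPM to an aged range of 61.4 to 78.8 CPM (log2 fold change -0.60 ± 0.12, edgeR adjusted p = 0.0172), and its call was lost without aged replicate 2 or 3 (highest edgeR adjusted p = 0.056). The other 14 tested podocyte genes did not pass in all 9 libraries. Leaving out 1 of the other 8 libraries left 14 to 24 of the 41 podocyte genes called lower.

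Vegfa, the endothelial growth factor that podocytes and tubules make, split the aged group. It measured 207, 230.0, 229, 244 and 216 CPM in young libraries, 229 CPM in aged replicate 1 and 97.4, 104 and 84.4 CPM in the other aged libraries. With all 9 libraries it did not pass (log2 fold change -0.80 ± 0.27, edgeR adjusted p = 0.0688), and without aged replicate 1 it fell 2.40-fold (edgeR adjusted p = 1.02e-05). Of 12 VEGF and angiopoietin ligands and receptors, 5 fell (Flt1, Kdr, Angpt2, Tek and Tie1) and Nrp2 rose (7 and 1 without aged replicate 1). Flt1, Kdr, Tek and Tie1 also belong to the endothelial list counted below. Of 20 basement membrane genes, 10 fell and 0 rose, and 15 fell without aged replicate 1. The summed level of the podocyte list was 3290 to 4403 CPM in young libraries, 2424 CPM in aged replicate 1 and 1587 to 1670 CPM in aged replicates 2 to 4. The macrophage sum went the other way in replicates 2 to 4 (11300 to 15020 CPM against 3006 to 5451 in young) but was 4488 CPM in aged replicate 1, where podocyte genes were also lower. What part the makeup of the fraction has in the podocyte values was not tested.

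**Figure D3:**
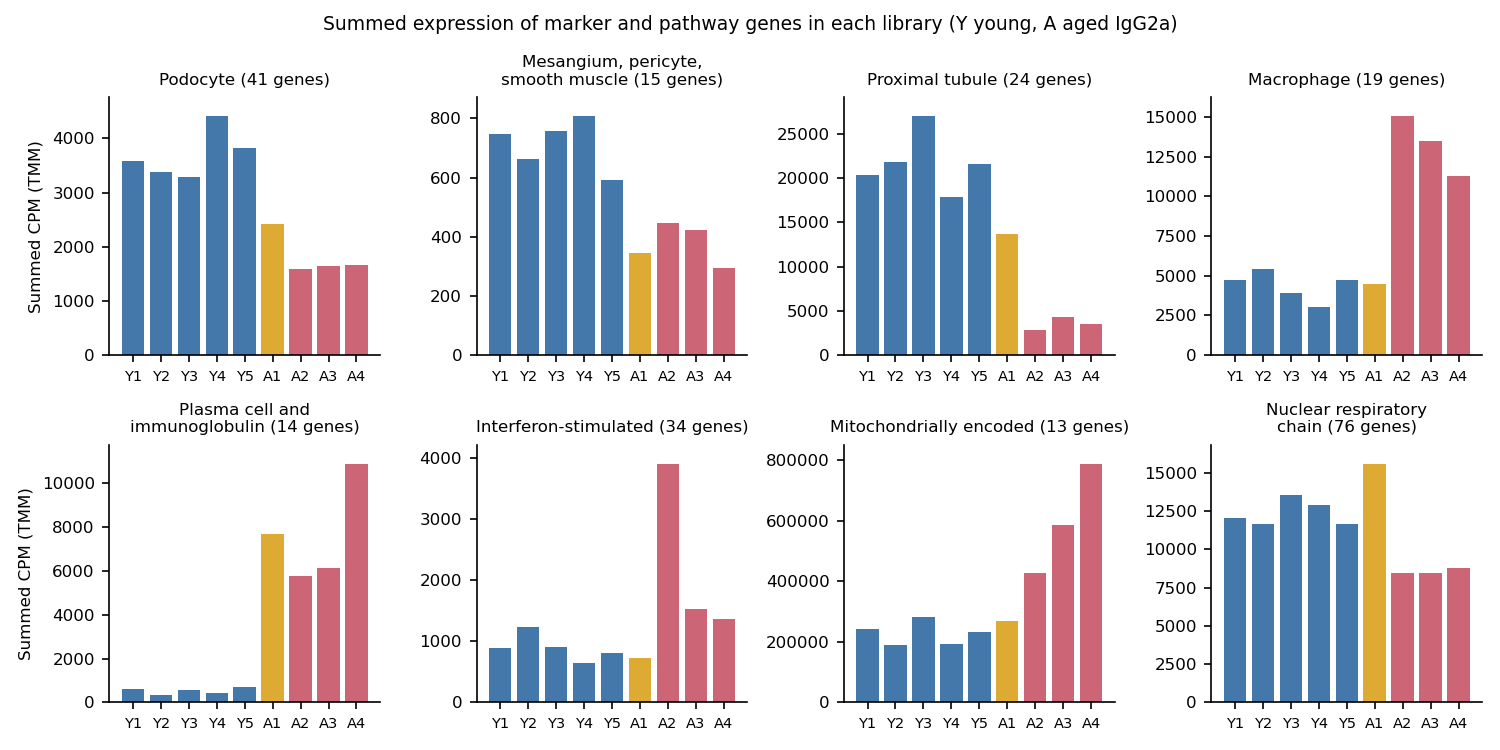
Summed CPM of the tested genes of 8 lists (bars, 1 per library, linear axes from 0), with young libraries Y1 to Y5, aged IgG2a replicate 1 (A1) and aged replicates 2 to 4 (A2 to A4). Podocyte and mesangial sums were lower and immunoglobulin sums higher in all aged libraries, whereas macrophage, interferon-stimulated and nuclear respiratory chain sums of A1 did not follow A2 to A4.

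Mesangial, pericyte and smooth muscle genes, which mark the contractile support cells of the glomerulus and its arterioles, were lower in the aged mice. Of 15 genes tested, 8 fell and 0 rose, with and without aged replicate 1 (median log2 fold changes -1.04 and -0.997), and 7 or 8 fell when any other library was left out. Myh11, the smooth muscle myosin heavy chain, measured 76.6, 60.8, 68.6, 79.1 and 49.3 CPM in young and 17.8, 19.6, 25.4 and 22.97 CPM in aged libraries. Aged replicate 1 was the lowest of the 9, and the gene was 3.12-fold lower (log2 fold change -1.64 ± 0.17, edgeR adjusted p = 0.00155). Mylk (myosin light chain kinase) and Acta2 (smooth muscle actin) were 2.79-fold and 2.30-fold lower (edgeR adjusted p = 0.00206 and 0.00713). Notch3, the mural cell Notch receptor, went from a young range of 24.5 to 40.1 CPM to an aged range of 10.5 to 14.3 CPM (edgeR adjusted p = 0.00248), and Rgs5, a pericyte G protein regulator, was 2.27-fold lower (edgeR adjusted p = 0.00858). Ano1, a calcium-activated chloride channel, was 3.07-fold lower (edgeR adjusted p = 0.00166). Pdgfrb, the platelet-derived growth factor receptor of mesangial cells, fell 2.26-fold (edgeR adjusted p = 0.0162), a call that was lost without aged replicate 3 (edgeR adjusted p = 0.053). Ren1 (renin) varied from 11.2 to 75.5 CPM among young libraries and did not pass (log2 fold change -1.19 ± 0.53, edgeR adjusted p = 0.137).

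Endothelial genes were lower in part. Of 20, 10 fell and 0 rose, with a median log2 fold change of -0.46, and 13 fell without aged replicate 1. Tek, the angiopoietin receptor, measured 57.6, 45.1, 61.5, 66.6 and 60.9 CPM in young and 27.2, 27.4, 27.3 and 36.2 CPM in aged libraries, 1.98-fold lower with no overlap (edgeR adjusted p = 0.00478). Plat, tissue plasminogen activator, and Ehd3, a marker of glomerular capillaries, were 1.86-fold and 1.90-fold lower (edgeR adjusted p = 0.0248 and 0.0285), and Kdr (the VEGF receptor) was 1.46-fold lower (edgeR adjusted p = 0.0335). The Tek call held in every leave-out. The Plat call was lost without young replicate 1 or aged replicate 2, 3 or 4, and the Ehd3 and Kdr calls without young replicate 1, 3, 4 or 5 or aged replicate 2, 3 or 4 (highest edgeR adjusted p = 0.0733, 0.0898 and 0.102). Between 1 and 10 endothelial genes fell when 1 of the 8 other libraries was left out.

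Proximal tubule genes, which mark the reabsorbing epithelium downstream of the glomerulus and are carried into the fraction, had the lowest median log2 fold change of the 44 lists. Of 24, 20 fell in all 9 libraries (median log2 fold change -1.80) and all 24 fell without aged replicate 1 (median -2.57). Lrp2 measured 693, 892, 1088, 902 and 806 CPM in young libraries, 479 CPM in aged replicate 1 and 84.9, 143 and 116 CPM in the other aged libraries. Aged replicate 1 was lower than every young library but 3 or more times the others, so that the fold was 4.25 with it and 7.77 without it (edgeR adjusted p = 0.0234 and 5.88e-06). Slc34a1 was 3.61-fold lower with aged replicate 1 and 6.00-fold without it (edgeR adjusted p = 0.027 and 3.17e-05). Kap, an androgen-responsive kidney protein and the most abundant gene of the list, measured 4553 to 6607 CPM in young libraries, 3304 CPM in aged replicate 1 and 584 to 945 CPM in the other aged libraries. It was 4.17-fold lower with and 8.09-fold lower without aged replicate 1 (edgeR adjusted p = 0.0302 and 8.93e-06). Slc5a12, a lactate transporter, was 3.95-fold lower (edgeR adjusted p = 0.0152). Named for their fold among genes with a mean of at least 10 CPM were Slco1a1, an organic anion transporter, at 9.84-fold, and Acsm3, an acyl-CoA synthetase, at 8.06-fold lower (edgeR adjusted p = 0.00918 and 0.0066). With aged replicate 1 left out these became 19.7-fold for Slco1a1 and 13.9-fold for Acsm3 (edgeR adjusted p = 9.65e-06 and 4.37e-06).

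Whether these tubule genes passed depended on which libraries were fitted. Leaving out 1 of the other 8 libraries left 0 to 8 proximal tubule genes called, in fits with 293 to 760 genes lower over all. In those fits the log2 fold changes were -2.13 to -1.81 for Kap and -1.94 to -1.60 for Slc34a1. They were -2.16 to -1.83 for Lrp2 and -2.05 to -1.71 for Slc5a12. Kap lost its call without any of those 8, Slc34a1 without any but young replicate 4, Lrp2 without young replicate 3 or 4 or aged replicate 2, 3 or 4, and Slc5a12 without aged replicate 3 (highest edgeR adjusted p = 0.0941, 0.0856, 0.0767 and 0.0558). The Slco1a1 and Acsm3 calls were kept throughout. Lists of later nephron segments had fewer called genes. The thick ascending limb list had 1 of 8 genes lower, Cldn10 (4 without aged replicate 1), the distal convoluted and connecting tubule list 1 of 7, Klk1 (5 without), the intercalated cell list 2 of 9, Slc4a9 and Insrr (5 without), and the collecting duct list 1 of 8 higher (0 without). Umod measured 3339.7, 4754, 3238, 3170.4 and 2817 CPM in young and 5345, 2888, 2472 and 2882 CPM in aged libraries (edgeR adjusted p = 0.953). Slc12a3, the thiazide-sensitive cotransporter, measured 2015 to 3626 CPM in young libraries, 5872 CPM in aged replicate 1 and 2194 to 2439.7 CPM in the others (edgeR adjusted p = 0.599). Aged replicate 1 was the highest of the 9 libraries for both. The 1 collecting duct gene was Aqp2 (aquaporin 2, edgeR adjusted p = 0.0486), which did not pass without aged replicate 1 (edgeR adjusted p = 0.0632) or without any other library but young replicate 4 (highest edgeR adjusted p = 0.107).

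Immunoglobulin genes had the highest median log2 fold change of the 44 lists. Of 14 plasma cell and immunoglobulin genes, 12 rose and 0 fell with or without aged replicate 1 (median log2 fold changes 3.02 and 3.22), and 8 to 11 rose when another library was left out. Igkc, the kappa constant region, measured 129, 52.7, 120.0, 97.8 and 166 CPM in young and 1820.5, 1617, 1756 and 3079 CPM in aged libraries. Every aged library lay over 9 times above the highest young one, and the rise was 18.3-fold (log2 fold change 4.19 ± 0.36, edgeR adjusted p = 0.00075). Ighm, the mu heavy chain, measured 237, 212, 318, 111 and 276 CPM in young and 5329.7, 2620, 2088 and 4099.9 CPM in aged libraries, with aged replicate 1 the highest (log2 fold change 3.94 ± 0.38, edgeR adjusted p = 0.00144). Igha, the IgA heavy chain, measured 186, 41.8, 73.5, 172 and 194 CPM in young libraries, 201 CPM in aged replicate 1 and 991, 1724 and 2630.1 CPM in the other aged libraries. Aged replicate 1 thus had the highest IgM level and an IgA level just above the young range. The Igha change was 3.38 ± 0.69 on the log2 scale (edgeR adjusted p = 0.0171) and was not called without aged replicate 3 (edgeR adjusted p = 0.0517).

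Secretory partners of antibody rose too. Jchain, which joins IgA and IgM subunits, rose 13.7-fold (edgeR adjusted p = 0.00243) and Mzb1, a chaperone of antibody assembly, 5.17-fold (edgeR adjusted p = 0.00536). Ighg2b rose 8.71-fold (edgeR adjusted p = 0.00878). IgG subclass genes are alike in sequence, so the split of reads among them is uncertain. Of 132 immunoglobulin variable segments tested, 84 rose and 0 fell (108 and 0 without aged replicate 1). Of 10 B cell genes, 0 passed in either direction with or without aged replicate 1 in edgeR. Of all genes 9.05% rose and 8.38% fell with all 9 libraries, and 22.1% and 23.5% without aged replicate 1. For 0 of the 10 was the unadjusted p under 0.05, and DESeq2 and limma called 0. The summed level of the list varied between aged libraries. It was 92.13 to 260.3 CPM in young libraries, 91.47 CPM in aged replicate 1 and 112.5, 181 and 457.9 CPM in aged replicates 2 to 4. Ms4a1, the B cell surface protein CD20, measured 24.7, 15.6, 10.7, 10.5 and 28.7 CPM in young and 7.18, 6.46, 13.6 and 43.0 CPM in aged libraries. The groups overlapped (edgeR adjusted p = 0.954).

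Use of variable segments differed between the aged mice. In the young libraries the commonest heavy chain segment took 6.93% to 11.2% of 1036 to 2178 heavy chain variable counts. The commonest kappa chain segment took 7.15% to 11.5% of 1280 to 2966 kappa chain variable counts there. In aged replicate 1, Ighv1-53 took 69.0% of 16314 heavy chain counts (95% Wilson interval 68.2% to 69.7%). Among kappa chain segments of that library, Igkv4-55 took 47.9% of 26310 counts (95% Wilson interval 47.3% to 48.5%). The commonest segment in aged replicates 2 to 4 took 8.66% to 17.7% of heavy chain and 14.6% to 17.5% of kappa chain variable counts. Variable segments share long stretches of sequence, so reads can be split among them, and the intervals cover counting error only.

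**Figure D4:**
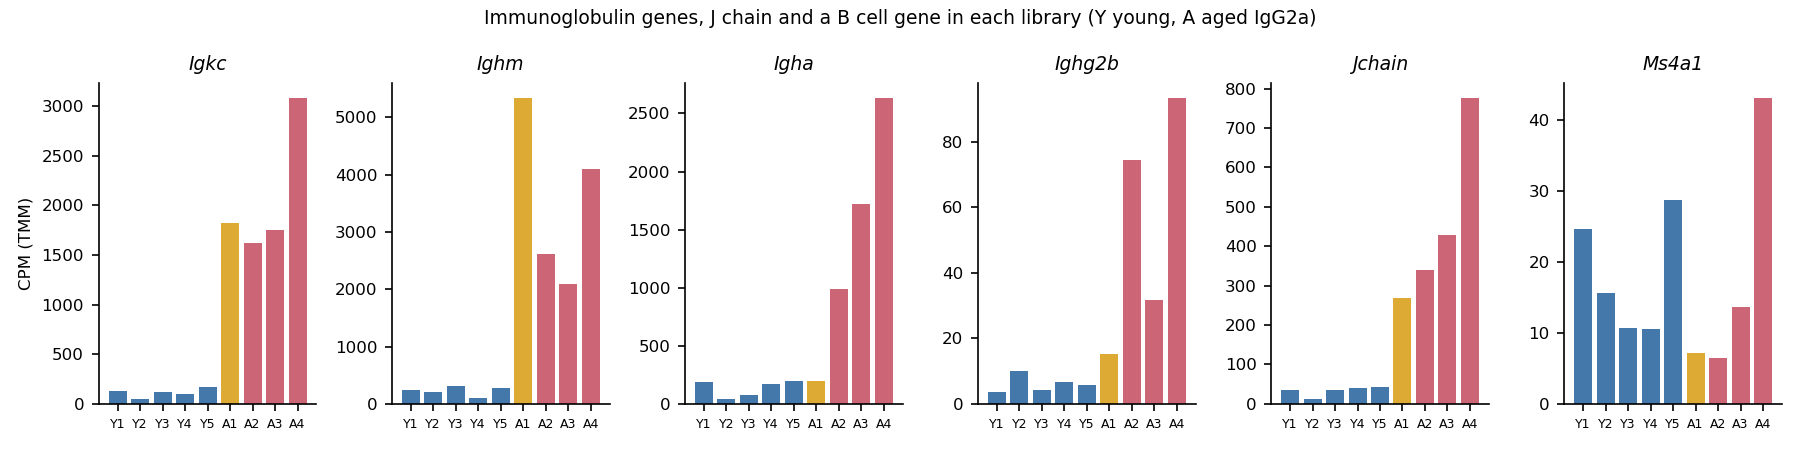
CPM of Igkc, Ighm, Igha, Ighg2b, Jchain and Ms4a1 in each library (bars, linear axes from 0 that differ between panels), with young libraries Y1 to Y5 and aged IgG2a replicates A1 to A4. The 5 antibody genes were higher in every aged library than in any young one, while Ms4a1 overlapped between the groups.

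Pan-macrophage genes were higher in aged replicates 2 to 4, while aged replicate 1 lay within the young range for those followed here. Of 19 genes, 16 rose in all 9 libraries (median log2 fold change 1.37) and 18 without aged replicate 1 (median 1.60), and 0 fell. The summed level of the list was 3006 to 5451 CPM in young libraries, 4488 CPM in aged replicate 1 and 11300 to 15020 CPM in the others. C1qa, a chain of the complement starter C1q, measured 380.1, 444, 293, 259 and 392 CPM in young libraries, 382.8 CPM in aged replicate 1 and 1619, 1344 and 1006 CPM in the other aged libraries. Aged replicate 1 sat inside the young range and the other 3 well above it, with folds of 3.08 with it and 3.68 without it (edgeR adjusted p = 0.0212 and 5.41e-05). Csf1r, the receptor for macrophage colony-stimulating factor, and Adgre1, which encodes F4/80, showed the same split, at 447 and 176 CPM in aged replicate 1 against 339 to 563 and 135 to 242 CPM in young libraries and 1129.7 to 1309 and 355 to 455 CPM in the others. Both passed with all 9 libraries (edgeR adjusted p = 0.0324 and 0.0429) and without aged replicate 1 (edgeR adjusted p = 0.000121 and 0.000413). Lyz2 (lysozyme) rose 2.66-fold (edgeR adjusted p = 0.0244). When 1 of the other 8 libraries was left out, 0 to 10 of the 19 genes passed. Csf1r and Adgre1 lost their calls without any of the 8, Lyz2 without any but young replicate 2 and C1qa without young replicate 1, 3 or 4 or aged replicate 2 or 3 (highest edgeR adjusted p = 0.096, 0.125, 0.0768 and 0.0661).

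Of the 19 genes of the macrophage list, 0 had groups that did not overlap. That is close to the share of all genes with all aged libraries above, 6.48%. Some genes named by the rule that required no overlap are also known from macrophages, so that aged replicate 1 lay above the young range for them by choice. Slc40a1, the iron exporter ferroportin, measured 29.8, 37.1, 34.0, 33.2 and 30.5 CPM in young and 121, 187, 104 and 139.8 CPM in aged libraries. Its groups did not overlap and its rise was 4.19-fold (log2 fold change 2.07 ± 0.17, edgeR adjusted p = 0.000619). Fcna, a secreted lectin that starts complement, measured 0.241, 0.447, 0.466, 0 and 0.250 CPM in young and 19.5, 13.5, 7.90 and 14.0 CPM in aged libraries (edgeR adjusted p = 0.00127). Adamdec1, a protease of tissue macrophages, rose from a young range of 0.214 to 1.86 CPM to an aged range of 18.0 to 31.3 CPM and Itgad, the integrin alpha D chain, from a young range of 0.0656 to 0.298 CPM to an aged range of 2.19 to 2.96 CPM (edgeR adjusted p = 0.00119 and 0.00155). For these 4 genes every aged library lay at least 2 times above the highest young one.

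For others aged replicate 1 stood at an intermediate level. Trem2, a lipid-sensing receptor of macrophages, measured 4.05, 3.93, 3.45, 3.48 and 5.00 CPM in young libraries, 15.2 CPM in aged replicate 1 and 47.0, 56.1 and 36.0 CPM in the other aged libraries (9.66-fold, edgeR adjusted p = 0.00155). Gpnmb, a glycoprotein of lipid-laden macrophages, and Clec1b, a C-type lectin, stood at 4.70 and 3.63 CPM in aged replicate 1, above all young libraries (0.466 to 1.12 and 0.714 to 0.970 CPM) and below the rest (12.6 to 26.8 and 12.6 to 24.2 CPM). Both passed with all 9 libraries and without aged replicate 1 (edgeR adjusted p = 0.00248 and 0.00248, then 5.88e-06 and 2.21e-06). Further genes of iron and lipid handling were picked after their values were seen. Spic, a transcription factor of heme-recycling macrophages, rose 9.43-fold, Hmox1 (heme oxygenase) 3.35-fold and Apoe (apolipoprotein E) 4.99-fold (edgeR adjusted p = 0.00366, 0.0118 and 0.00476), with no overlap between the groups. Vsig4, a complement receptor of resident macrophages, had 2 reads in all 5 young libraries together and 7.75, 1.01, 4.01 and 1.28 CPM in the aged libraries (edgeR adjusted p = 0.00351). The calls of the 11 genes of this set named here held whichever library was left out. These genes were chosen by the no-overlap rule or after their values were seen. Their kept calls are therefore no comparison with the macrophage list.

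Of 17 T cell genes, 5 rose and 0 fell (12 and 0 without aged replicate 1). Their summed level was 15.67 to 30.63 CPM in young libraries, 24.9 CPM in aged replicate 1, inside that range, and 55.54 to 79.43 CPM in aged replicates 2 to 4. Cd8b1, the CD8 beta chain, measured 0.241, 0.238, 0.0776, 0.131 and 0.143 CPM in young and 0.576, 2.24, 0.549 and 4.96 CPM in aged libraries (edgeR adjusted p = 0.0162), and Cd28, the T cell costimulatory receptor, 0.328 to 0.882 CPM and 1.21 to 3.76 CPM (edgeR adjusted p = 0.0202). The Cd8b1 values rest on 2 to 8 reads in each young library and 10 to 70 in each aged library. Cd3e did not pass with all 9 libraries (edgeR adjusted p = 0.103) and passed without aged replicate 1 (edgeR adjusted p = 0.012). The Cd28 call was lost without young replicate 3 or aged replicate 2 or 4 (highest edgeR adjusted p = 0.0666). Of 10 NK and cytotoxic genes, 1 rose (Eomes) and 1 fell (2 and 1 without aged replicate 1). The latter was Gzma (granzyme A), at 0.656 to 1.31 CPM in young and 0.173 to 0.507 CPM in aged libraries (edgeR adjusted p = 0.0298), a call lost without young replicate 1, 2 or 3 or aged replicate 2, 3 or 4 (highest edgeR adjusted p = 0.0848). The aged Gzma values rest on 6 to 12 reads per library. Among 9 dendritic cell genes Batf3 rose and Zbtb46 fell (2 and 2 without aged replicate 1). Of 4 neutrophil genes tested Csf3r rose with or without aged replicate 1, and of 8 fibroblast genes Dcn rose (3 rose and 1 fell without). Of 6 red cell genes 0 passed in edgeR with or without aged replicate 1, 0 had an unadjusted p under 0.05, and DESeq2 and limma called 0.

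Interferon-stimulated genes, the antiviral effectors switched on by interferon receptors through STAT and IRF factors, were high in aged replicates 2 to 4 and highest in aged replicate 2. Of 34, 4 rose with all 9 libraries (Bst2, Oasl1, Isg20 and Ifi27l2a) and 28 rose without aged replicate 1 (median log2 fold changes 1.16 and 1.44). The summed level was 649.8 to 1242 CPM in young libraries, 727.4 CPM in aged replicate 1 and 1369 to 3907 CPM in the others. Irf7, a master regulator of the response, measured 44.9, 67.6, 48.4, 27.4 and 34.5 CPM in young libraries, 42.2 CPM in aged replicate 1 and 520.2, 99.7 and 85.6 CPM in aged replicates 2 to 4. Aged replicate 2 was over 5 times as high as any other library, and Irf7 did not pass with all 9 libraries (edgeR adjusted p = 0.0515) but passed without aged replicate 1 (log2 fold change 2.38 ± 0.60, edgeR adjusted p = 0.012). Ifit3 and Isg15, an RNA-binding antiviral protein and a ubiquitin-like modifier, followed suit, with 173, 44.2 and 42.2 CPM and 65.6, 18.2 and 13.8 CPM in aged replicates 2 to 4 against 18.5 to 37.1 CPM and 6.62 to 12.9 CPM in young libraries. Neither passed with all 9 libraries (edgeR adjusted p = 0.0771 and 0.0608), and both did without aged replicate 1 (edgeR adjusted p = 0.0171 and 0.0192).

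Bst2 (tetherin, which holds budding viruses at the membrane) and Oasl1 passed with all 9 libraries (edgeR adjusted p = 0.0321 and 0.0351). The Bst2 call was lost without any of the 8 libraries other than aged replicate 1 and the Oasl1 call without any of them but aged replicate 4 (highest edgeR adjusted p = 0.0769 and 0.106). In an alternative chosen after the data were seen, with aged replicates 1 and 2 both left out, 22 of the 34 genes still rose, while the log2 fold change of Irf7 was 1.03 and that of Ifit3 0.77. With 1 of the other 8 libraries left out and aged replicate 1 kept, 0 or 1 of the 34 passed. Over all genes, those fits called 260 to 744 higher.

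The promoters of 4 of these genes are shown, since 28 members of the list rose in the fit without aged replicate 1 and some promoters hold a response element of the pathway. They are the 4 list members with the smallest p in the fit with all 9 libraries. The choice was among those whose promoter holds the core of the interferon-stimulated response element, GAAANNGAAA, on either strand. Capitals mark each match (overlapping matches run together). In that fit Bst2 passed, and Isg15, Oas1a and Ifit3 did not. Windows run from 250 bases before to 50 bases after the start of the RefSeq transcript, 5′ to 3′ on the gene's strand, in build GRCm38.p6. They lie at chr8:71537423-71537722 (Bst2, minus strand), chr4:156200769-156201068 (Isg15, minus strand), chr5:120907476-120907775 (Oas1a, minus strand) and chr19:34583279-34583578 (Ifit3, plus strand).
Bst2: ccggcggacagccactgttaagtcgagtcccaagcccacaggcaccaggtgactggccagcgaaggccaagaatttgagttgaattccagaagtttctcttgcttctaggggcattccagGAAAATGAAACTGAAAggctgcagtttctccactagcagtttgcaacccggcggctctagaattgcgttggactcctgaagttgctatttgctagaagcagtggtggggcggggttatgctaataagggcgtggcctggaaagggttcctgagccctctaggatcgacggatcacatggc
Isg15: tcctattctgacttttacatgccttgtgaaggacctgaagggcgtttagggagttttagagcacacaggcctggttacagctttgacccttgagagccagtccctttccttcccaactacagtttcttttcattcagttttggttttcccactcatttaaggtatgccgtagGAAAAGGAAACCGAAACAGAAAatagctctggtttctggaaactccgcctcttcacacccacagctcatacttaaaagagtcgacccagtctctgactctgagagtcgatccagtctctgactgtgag
Oas1a: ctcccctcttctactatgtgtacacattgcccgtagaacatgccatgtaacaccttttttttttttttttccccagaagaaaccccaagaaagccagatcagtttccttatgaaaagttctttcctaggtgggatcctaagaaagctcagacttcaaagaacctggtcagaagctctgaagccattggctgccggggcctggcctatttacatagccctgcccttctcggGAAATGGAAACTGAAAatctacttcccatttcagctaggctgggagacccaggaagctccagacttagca
Ifit3: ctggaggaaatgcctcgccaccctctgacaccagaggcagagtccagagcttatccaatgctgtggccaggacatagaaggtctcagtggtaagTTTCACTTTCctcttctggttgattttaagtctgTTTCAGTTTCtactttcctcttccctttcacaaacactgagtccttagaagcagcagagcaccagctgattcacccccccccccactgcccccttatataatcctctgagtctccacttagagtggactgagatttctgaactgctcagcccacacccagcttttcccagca
A match was present in a promoter of 14 of 23 list genes that have an entry in the RefSeq table (60.9%). Of all 11621 tested genes with an entry, 458 held one (3.94%). Of the 17 with an entry that rose without aged replicate 1, 9 held one (52.9%). Isg15 held 3 overlapping matches and each of the other 3 held 2. Those of Bst2, Isg15 and Oas1a read on the strand of the gene, the first at 130, 78 and 20 bases before its start, and those of Ifit3 read on the opposite strand. The genes were listed as interferon-stimulated, so the higher share describes the choice of list and says nothing about these mice. A match is a description of the letters in this window.

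**Figure D5:**
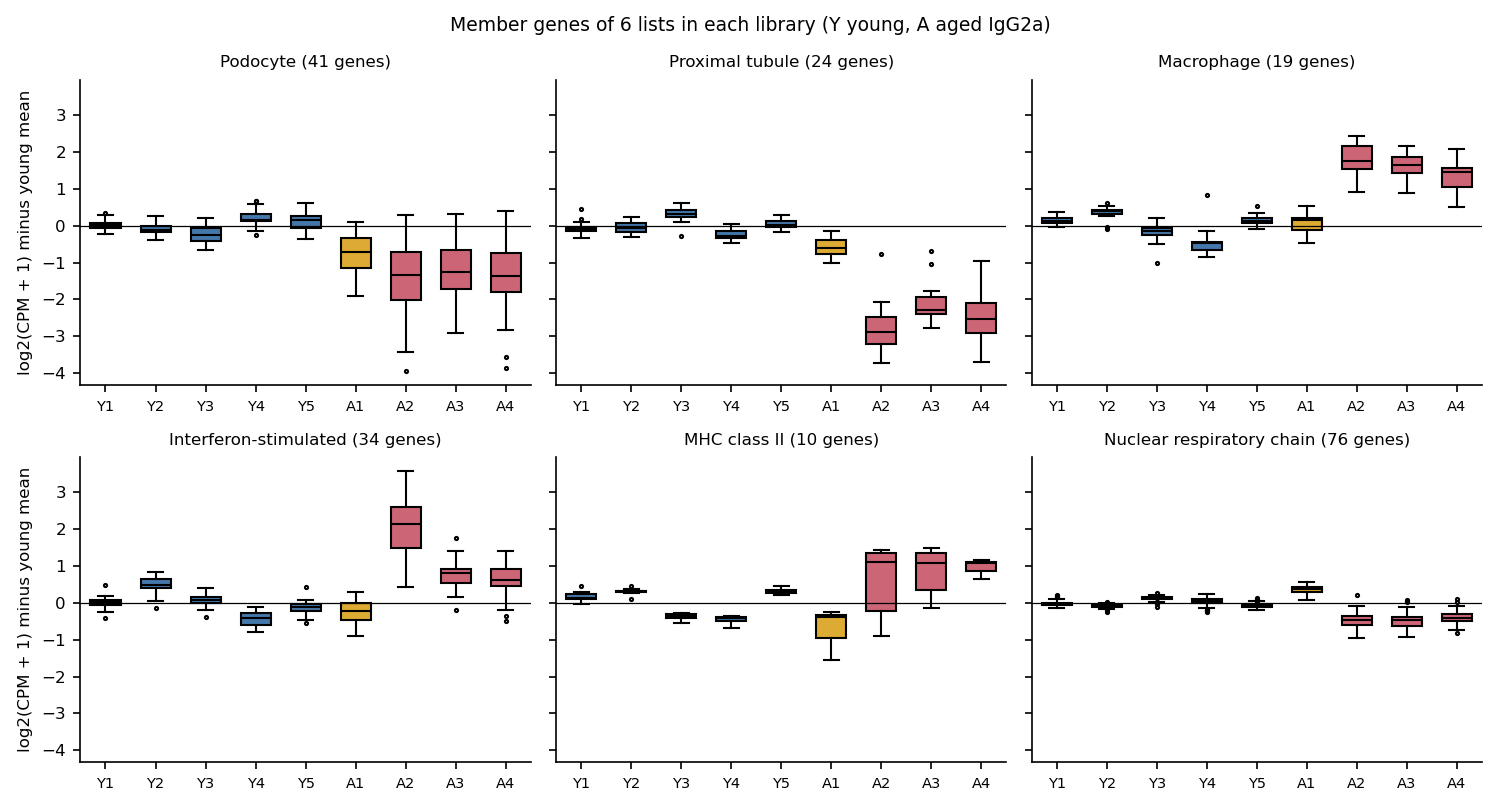
Boxes show the member genes of 6 lists in each library as log2(CPM + 1) minus the mean of the young libraries (line, median; box, quartiles; whiskers, 1.5 interquartile ranges; points, genes beyond), with Y1 to Y5 young and A1 to A4 aged IgG2a. Interferon-stimulated genes were highest in A2, and macrophage and MHC class II genes were high in A2 to A4 but not in A1, whereas podocyte and proximal tubule genes were low in all 4 aged libraries.

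Antigen presentation genes showed the same split between the aged mice. Of 10 MHC class II genes, 0 passed in edgeR with all 9 libraries, where 6 had an unadjusted p under 0.05, and 6 rose without aged replicate 1. DESeq2 called 5 higher and limma 6 with all 9 libraries. Cd74 measured 4398, 4818, 3146, 3105 and 5061 CPM in young libraries, 3359.8 CPM in aged replicate 1 and 10225, 10389 and 8644 CPM in the others (edgeR adjusted p = 0.0712 with and 0.000923 without aged replicate 1). Of 15 MHC class I and immunoproteasome genes, 6 rose (11 without). B2m, the class I light chain, rose 2.05-fold (edgeR adjusted p = 0.0406) and lost its call without any of the 8 libraries other than aged replicate 1 (highest edgeR adjusted p = 0.127). Its level was 531 CPM in aged replicate 1, inside the young range of 413 to 703 CPM.

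Several secreted immune mediators were above the young range in all aged libraries. C4b (complement C4) measured 7.86, 16.6, 8.38, 5.93 and 8.71 CPM in young and 36.9, 115, 58.4 and 17.9 CPM in aged libraries (6.00-fold, edgeR adjusted p = 0.0135), and Cfp (properdin, which stabilizes the alternative convertase) rose 3.61-fold (edgeR adjusted p = 0.00476). The chemokines Ccl8, a monocyte attractant, and Cxcl13, a B cell attractant, rose 10.7-fold and 8.65-fold (edgeR adjusted p = 0.0104 and 0.0145). For these 4 genes no aged library reached into the young range, although Cxcl13 of aged replicate 4 equaled that of young replicate 3 to 3 digits (3.26 CPM). Cfb, factor B of the alternative pathway and also a proximal tubule product, fell 3.47-fold with and 5.74-fold without aged replicate 1 (edgeR adjusted p = 0.0298 and 0.000174), a call that held without aged replicate 1 or 4 and was lost without any other library (highest edgeR adjusted p = 0.0898). In all, 7 of 21 complement genes rose and 1 fell (14 and 2 without aged replicate 1), 10 of 28 chemokine genes rose and 0 fell (16 and 1 without), 9 of 20 Toll-like receptor genes rose and 0 fell (15 and 1 without) and 7 of 15 inflammasome genes rose and 0 fell (12 and 0 without).

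Transcripts of the PD-1 axis, the subject of the study's treatment, were scarce apart from the ligand Cd274. Pdcd1 (PD-1) measured 0.0802, 0.536, 0.233, 0.0656 and 0.785 CPM in young and 0.634, 1.01, 1.10 and 0.709 CPM in aged libraries and did not pass (log2 fold change 1.31 ± 0.62, edgeR adjusted p = 0.156). Its groups overlapped through young replicate 5. Pdcd1lg2 (PD-L2) did not pass either (log2 fold change 1.04 ± 0.57, edgeR adjusted p = 0.216). Cd274 (PD-L1) measured 18.5, 28.3, 14.7, 12.8 and 18.4 CPM in young and 21.6, 45.4, 42.4 and 27.7 CPM in aged libraries and rose 1.85-fold (edgeR adjusted p = 0.0494; 2.04-fold and edgeR adjusted p = 0.0108 without aged replicate 1). That call was lost without young replicate 1, 3, 4 or 5 or aged replicate 2, 3 or 4 (highest edgeR adjusted p = 0.148). Lag3, another inhibitory receptor, rose 3.60-fold with no overlap (edgeR adjusted p = 0.0136) in every leave-out. Ctla4 passed at an edgeR adjusted p of 0.0468 and did not pass without aged replicate 1 (edgeR adjusted p = 0.0595) or without any other library but aged replicate 4 (highest edgeR adjusted p = 0.0994). Of the 13 checkpoint genes tested, 5 rose and 0 fell, and 9 rose without aged replicate 1.

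Genes of cell death and autophagy that the study examined differed in direction. Bcl2l11, which encodes the cell death protein BIM, rose 1.79-fold from a young range of 21.5 to 29.4 CPM to an aged range of 31.4 to 58.2 CPM (edgeR adjusted p = 0.0164), a call lost without aged replicate 2 or 3 (highest edgeR adjusted p = 0.0523). Card10, a scaffold of NF-kB signaling, fell 2.06-fold with no overlap (edgeR adjusted p = 0.0154), a call lost without aged replicate 3 (edgeR adjusted p = 0.0553). Tnf, Card14 and Map1lc3a did not pass with all 9 libraries (log2 fold changes 1.04 ± 0.45, -0.85 ± 0.28 and -0.19 ± 0.14; edgeR adjusted p = 0.126, 0.0631 and 0.342). Map1lc3a fell without aged replicate 1 (log2 fold change -0.38 ± 0.10, edgeR adjusted p = 0.0108).

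In the fit without aged replicate 1, mitochondrial transcripts rose and nuclear genes of the same complexes fell. Of 13 protein-coding transcripts of the mitochondrial genome, 10 rose (median log2 fold change 1.26), and 13 rose without aged replicate 1. mt-Co1, a subunit of cytochrome oxidase, measured 84460, 67522, 101090, 68103 and 83952 CPM in young libraries, 102250 CPM in aged replicate 1 and 154730, 212560 and 279580 CPM in the others (edgeR adjusted p = 0.047 with and 0.002 without aged replicate 1). mt-Cytb rose 2.47-fold (edgeR adjusted p = 0.0378). Both calls were lost without any of the 8 libraries other than aged replicate 1, when 4 of the 13 still rose. Mitochondrial genes have near-identical nuclear copies, so their counts are uncertain. Of 76 nuclear genes of the respiratory chain, 0 passed in edgeR with all 9 libraries (median log2 fold change -0.20), where 2 had an unadjusted p under 0.05, and 69 fell without aged replicate 1 (median -0.48). With all 9 libraries DESeq2 called 0 of them and limma with sample quality weights 66 lower. Uqcrc2, of complex III, measured 251, 245, 279, 273 and 227 CPM in young libraries, 284 CPM in aged replicate 1 and 143, 141 and 152 CPM in the others (edgeR adjusted p = 0.128 and 7.30e-05), and Atp5b, of ATP synthase, was 1.71-fold lower without aged replicate 1 (edgeR adjusted p = 0.000761). For both genes aged replicate 1 was the highest of the 9 libraries.

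Metabolic genes that the proximal tubule expresses strongly were lower. Of 17 peroxisomal oxidation genes, 12 fell (16 without aged replicate 1), of 10 genes of gluconeogenesis and fructose use 9 fell (10 without) and of 18 genes of mitochondrial fatty acid oxidation 5 fell (18 without), with 0 rising. G6pc and Pck1, key enzymes of gluconeogenesis, were 4.52-fold and 4.199-fold lower (edgeR adjusted p = 0.0204 and 0.0358), and 8.04-fold and 8.23-fold lower without aged replicate 1 (edgeR adjusted p = 2.46e-05 and 0.000251). Acadm, the medium-chain acyl-CoA dehydrogenase, was 1.77-fold lower (edgeR adjusted p = 0.0451). The Pck1 and Acadm calls were lost without any of the 8 libraries other than aged replicate 1 and the G6pc call without young replicate 3 or aged replicate 2, 3 or 4 (highest edgeR adjusted p = 0.103, 0.131 and 0.0664). The proximal tubule sum was lower over the same libraries (17900 to 26940 CPM in young, 13710 CPM in aged replicate 1 and 2838 to 4352 CPM in the others), and its part in these lists was not tested. Of 15 glycolysis genes, Hk2 rose and 0 fell (1 and 6 without aged replicate 1).

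Markers of injury and of stress were higher in part. Vcam1, an adhesion receptor, measured 32.4, 35.5, 28.3, 50.4 and 36.3 CPM in young and 116, 245, 223 and 96.4 CPM in aged libraries (4.65-fold, edgeR adjusted p = 0.00422). Lcn2 (lipocalin 2) and Gdf15, a stress cytokine, rose 2.39-fold and 2.91-fold (edgeR adjusted p = 0.00374 and 0.00659). All 3 were higher in every aged library than in any young one and kept their calls in every leave-out. The tubule injury list had 3 of 13 genes rising, Vcam1, Lcn2 and Krt19 (6 rising and 2 falling without aged replicate 1) and the senescence list 2 of 12 rising, Gdf15 and Cdkn2c, and 2 falling, Igfbp5 and Glb1 (4 and 2 without). Of 13 heat shock genes 2 rose, Hspa1a and Hspa1b, which are near-identical and share reads. Hspa1b ranged over 115 to 441 CPM in young and 326 to 1305 CPM in aged libraries (edgeR adjusted p = 0.0311), a call lost without young replicate 1, 2, 3 or 4 or aged replicate 2 or 3 (highest edgeR adjusted p = 0.0975). Of 16 immediate early genes, 0 passed in edgeR with or without aged replicate 1, although 6 had an unadjusted p under 0.05 and were higher with all 9 libraries, and DESeq2 and limma called 1 each. Of 14 endoplasmic reticulum stress genes, 0 passed in edgeR with all 9 libraries, where 3 higher and 4 lower had an unadjusted p under 0.05, and 2 rose and 5 fell without aged replicate 1. DESeq2 called 1 of them higher and 4 lower, and limma 3 higher and 5 lower.

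Cell cycle genes again separated aged replicate 1 from the others. Of 24 mitosis genes 1 rose with all 9 libraries and 14 without aged replicate 1, and of 22 DNA replication genes 0 and 16 rose, with none falling in these edgeR fits. The single mitosis gene was Ndc80. Of the replication genes, 12 had an unadjusted p under 0.05 with all 9 libraries, and DESeq2 called 6 higher and limma 16. Mki67, a marker of cycling cells, measured 14.9 to 31.6 CPM in young libraries, 12.1 CPM in aged replicate 1 and 36.2 to 64.0 CPM in the others (edgeR adjusted p = 0.14 with and 0.00715 without aged replicate 1). Lysosome and cathepsin genes rose in 9 of 18 cases and fell in 1 (12 and 3 without aged replicate 1). Of 16 TGF-beta signaling genes Tgfb1 and Tgfbi rose and Tgfbr3 and Ltbp1 fell (7 and 3 without), of 18 autophagy genes Atg7 rose and Atg9a and Wipi1 fell (2 and 7 without) and of 16 clock genes Bhlhe41 rose and Hlf fell (4 and 4 without).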

How the data were processed

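Podocyte fractions from young and aged IgG2a mice were sequenced as bulk RNA. The deposited table holds raw counts per gene, which the authors made with HISAT2 and featureCounts on mm10 (GRCm38), as the submitters' processing notes name them. Tool versions and the strand setting are not given in the sources used here, so overlapping and antisense genes are uncertain. The table lists 46078 genes, of which 45229 had a symbol in GENCODE M21. Of its 15 libraries, 6 were not used: those of other groups and 2 whose group could not be settled. Replicate numbers follow the order of the columns' numbers and pair no samples.

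Genes were filtered with filterByExpr, scaled by TMM and tested with edgeR 4.0.16 (glmQLFit with robust estimation and glmQLFTest, R 4.3.3) on the 9 libraries alone, without covariates, as no batch is labelled. Adjusted p-values are Benjamini-Hochberg over all genes tested. CPM are TMM-scaled counts per 1000000, and the SE of a log2 fold change is its size over the root of F. Genes with a few counts in the young libraries have fitted folds that depend on the prior count. The scripts were tested on simulated data. Alternatives were DESeq2 1.42.0, limma 3.58.1 (voom with sample quality weights), other scalings and filters, and leaving out each library.

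The members and the 44 gene lists were chosen with earlier results of these data known. Some lists share genes, so their counts are not independent of each other. Genes were named by a rule: (a) the 10 protein-coding genes in each direction with the smallest p among those past adjusted p of 0.05 and 2-fold with and without aged replicate 1 whose groups do not overlap; (b) 5 in each direction with the largest fold among these with a mean of at least 10 CPM; (c) of each list the 4 most abundant and 4 others with the smallest p; and (d) Pdcd1, Cd274, Pdcd1lg2, Tnf, Bcl2l11, Card10, Card14, Vegfa and Map1lc3a. The text names part of these. Spic, Hmox1, Vsig4, Apoe, Derl3, Prdm1, Abcg1, Nr1h3 and Pltp were chosen after their values were seen. Promoters came from RefSeq (GRCm38.p6). Genes with near-identical copies (immunoglobulin segments, MHC genes, Hspa1a and Hspa1b, mitochondrial genes) are uncertain where counting could split reads. Some named items are not reported here.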

Additional observations from a re-analysis of the deposited data

Results flagged for a closer look

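For 44 summed lists and 102 named genes over both groups, a check asked whether the highest or lowest library stood farther from its neighbor than Dixon's limit allows. It looked at 292 groups and marked 45, and chance marks about 1 in 20 groups. Aged replicate 1 was marked 27 times, young replicate 2 5 times, aged replicate 2 and young replicate 3 4 times each, aged replicate 4 3 times and young replicate 5 2 times.

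By summed level, aged replicate 1 was apart from the other aged libraries for podocyte genes (2424 CPM), proximal tubule (13710 CPM), thick ascending limb (8982 CPM), distal convoluted and connecting tubule (8919 CPM), intercalated cell (767.3 CPM), dendritic cell (138.4 CPM) and neutrophil genes (27.72 CPM). The same held for the lists of VEGF and angiopoietin (860.4 CPM), checkpoints (242.9 CPM), nuclear respiratory chain (15580 CPM), mitochondrial fatty acid oxidation (2641 CPM), peroxisomal oxidation (2300 CPM), glycolysis (4495 CPM) and TGF-beta signaling (948.9 CPM). Endoplasmic reticulum stress genes stood apart in aged replicate 4 (2186 CPM).

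Among single genes aged replicate 1 stood apart for Col4a3 (120.9 CPM), Vegfa (229.4 CPM), Ehd3 (152.8 CPM), Lrp2 (479 CPM), Kap (3304 CPM), Slco1a1 (28.93 CPM), Umod (5345 CPM), Slc12a3 (5872 CPM), Lyz2 (911.3 CPM), Uqcrc2 (284.5 CPM), Atp5b (2034 CPM), G6pc (114.9 CPM) and Acadm (247.3 CPM). Aged replicate 2 was the high library for Spic (85.39 CPM) and for the interferon-stimulated genes Irf7 (520.2 CPM), Isg15 (65.63 CPM) and Ifit3 (173.2 CPM). Aged replicate 4 was high for Tek (36.16 CPM) and Igkc (3079 CPM).

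Among the young, replicate 2 stood apart for Umod (4754 CPM), Vsig4 (0.0596 CPM, from 2 reads), Jchain (11.71 CPM), Cd3e (0.894 CPM) and C4b (16.63 CPM). Young replicate 3 stood apart for Ren1 (75.5 CPM), Cfb (8.807 CPM), Cxcl13 (3.259 CPM) and Derl3 (1.513 CPM), and young replicate 5 for Map1lc3a (30.94 CPM) and Hspa1b (441.4 CPM).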

How the results depend on the processing

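Counts of genes moved by over 1.5 times with the libraries used. Over the 9 fits that each left out 1 library, the count higher ran from 260 (aged replicate 3) to 3584 (aged replicate 1), lower from 293 to 3813, over 2-fold higher from 185 to 1323 and over 2-fold lower from 204 to 1447. With all libraries, DESeq2 called 2289 higher and 2166 lower. Limma voom with sample quality weights, which gave aged replicate 1 a weight of 0.120, called 3898 and 3549, of which 1183 and 1301 were past 2-fold. Without a filter on low counts 828 were higher. With aged replicates 1 and 2 both left out, an alternative chosen after seeing the data, 2858 were higher and 3112 lower, with 1117 and 1327 past 2-fold. The other 25 counts under RLE or upper quartile scaling, a stricter or no filter, no robust estimation, those tools or no mitochondrial and immunoglobulin genes stayed within 1.5 times. The causes of these shifts were not tested.

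Of 84 named genes called, 53 kept their calls whichever library was left out and 31 lost them at least once. The naming rule took many genes for small p-values, so these numbers do not stand for all genes. Counts of list members moved by over 1.5 times in 279 comparisons without a library other than aged replicate 1 and stayed in 425. The sign turned for 3 genes that passed in none of these fits. With 1 library left out, the log2 fold change of Umod ran from -0.36 to 0.11 (above 0 without young replicate 2 at 0.112 or aged replicate 2, 3 or 4 at 0.043, 0.098 and 0.032). That of Slc12a3 ran from -0.22 (without aged replicate 1) to 0.41, with -0.030 in limma and -0.18 without aged replicates 1 and 2. Ms4a1 ran from -1.01 (without aged replicate 4) to 0.22 (without aged replicate 2), with 0.084, 0.18, 0.17 and 0.045 without young replicate 1 or 5 or aged replicate 1 or 3 and 0.61 without aged replicates 1 and 2. The young and aged libraries came from different mice, so there were no pairs to analyze. With 20500755 or more counts per library, depth limits the genes with a few reads in the young libraries, such as Cd5l, Prg2, Ccr3 and Vsig4.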

Other observations

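The 5 genes given here lie outside the lists and were chosen after their values were seen, so they stand for no group. Derl3, a component of endoplasmic reticulum quality control that plasma cells use, measured 0.963, 0.954, 1.51, 0.951 and 1.03 CPM in young and 6.37, 3.17, 3.57 and 5.46 CPM in aged libraries (log2 fold change 2.10 ± 0.27, edgeR adjusted p = 0.00345). Prdm1, which encodes the plasma cell factor Blimp-1 and is also used by other leukocytes, measured 11.5 to 16.2 CPM in young and 22.9 to 34.8 CPM in aged libraries (log2 fold change 1.05 ± 0.16, edgeR adjusted p = 0.00676). Without aged replicate 1 the log2 fold changes were 1.87 and 1.13 (edgeR adjusted p = 0.000254 and 0.000164).

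Abcg1, a sterol exporter, measured 20.9, 31.2, 21.8, 23.97 and 24.6 CPM in young and 43.6, 98.2, 63.7 and 86.7 CPM in aged libraries (log2 fold change 1.57 ± 0.22, edgeR adjusted p = 0.00513). Nr1h3, the sterol-sensing receptor LXR alpha, measured 12.7 to 15.8 CPM in young and 21.4 to 37.4 CPM in aged libraries (log2 fold change 1.02 ± 0.16, edgeR adjusted p = 0.00713), and Pltp, a phospholipid transfer protein, 19.6 to 41.1 CPM and 45.4 to 167 CPM (log2 fold change 1.84 ± 0.33, edgeR adjusted p = 0.0111). Without aged replicate 1 these 3 genes had log2 fold changes of 1.73, 1.11 and 2.08 (edgeR adjusted p = 2.14e-05, 0.000101 and 0.000113).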
